A study of Mus musculus with 36 samples.

Results

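Dmd encodes dystrophin, the large protein that links the cytoskeleton of muscle fibres to the surrounding matrix, and it is among the longest genes on the X chromosome. The gene was followed here as a stretch of chromatin, through the histone mark H2AK119ub1 that was measured on both X alleles of female mouse embryonic stem cells while the Xist RNA was switched on. RefSeq places the gene at chrX:82814664-85205050 on the plus strand (GRCm38.p6, the patch release of the mm10 build used by the deposited files), a span of 2390 kb. It overlapped 10 of the 414 windows of 250 kb in the allelic files, and all 10 were among the 353 windows with enough signal to be tested. The windows run from X:82750001 to X:85250000 and are called W1 to W10 from the 5′ to the 3′ end. Dmd covers 74.1% of W1, 82.0% of W10 and 100% of the other 8 windows. Dmd was chosen by its high allelic change at 24 h in earlier results of these data, so its 24 h values are a description and were not tested. The 3 h libraries were not used to choose it and carry the tests. They come from the same cell line and in part from the same clones, so a high gain there is not independent of that choice.

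H2AK119ub1 is the ubiquitylation of histone H2A by the Polycomb repressive complex PRC1. In X inactivation, Xist RNA coats the chromosome it is made from, recruits PRC1 and, through the adaptor protein Spen, silences genes. Spen binds Xist with its RNA recognition motifs (RRM) and contacts co-repressors with its SPOC domain. The mark spreads in broad domains over the X chromosome that is being inactivated.

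All cells were female hybrid ES cells of a 129S by Cast background (iXist-ChrX), in which a TetOn promoter drives Xist from the 129S allele once doxycycline (1 µg/mL) is given. The Spen clones carry an RRM deletion and were C3 and C4 at 3 h and C3 and D4 at 24 h. The labels note a spurious truncated product in C3 and a full knockout in C4. The SPOC clones carry a mutated SPOC domain and were C11 and H1 at 3 h and E7 and H1 at 24 h. The parental line (WT) had 1 pair of libraries at 3 h and 3 pairs at 24 h, each pair being 1 culture with doxycycline and 1 without. There were 24 H2AK119ub1 libraries and 12 inputs, the inputs belonging to the 24 h series, with 2 pairs per genotype. The 3 h series was handled on the same day. For the 24 h libraries, genotypes were processed on separate occasions, as were the WT repeats, so genotype and occasion cannot be told apart there. The clones come from 1 cell line, and a pair is 1 clone, so the spread between pairs is that between clones or repeats of that line. For the 4 SPOC 24 h ChIP libraries the titles and the file names give opposite doxycycline states. For the SPOC inputs the titles and file names match. Values are given with both namings. Neither the labels nor the file headers used here tie genome 1 and genome 2 to a strain.

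RefSeq gives 2 starts with a promoter sequence for Dmd, shown here because they lie in the end windows of the profile described below, W1 and W10. The start in W1, called upstream here, lies inside the annotated gene body, which begins at X:82814664. The figures measure distance from that annotated start. Mammalian Dmd is known to have an internal promoter near its 3′ end, that of the short form Dp71. The promoter of Tsga8, a testis gene inside Dmd, is shown because it lies in W3, the window with the highest mean change of the gene at 24 h (for the SPOC clones with the states of the file names; as titled it has the lowest). Each run holds 300 bases, 5′ to 3′ on the gene's strand, with CpG dinucleotides in capitals. The first is chrX:82948620-82948919 (plus strand, W1), the second chrX:85048045-85048344 (plus strand, W10) and the third chrX:83487875-83488174 (minus strand, W3), all on GRCm38.p6.
Dmd, upstream start: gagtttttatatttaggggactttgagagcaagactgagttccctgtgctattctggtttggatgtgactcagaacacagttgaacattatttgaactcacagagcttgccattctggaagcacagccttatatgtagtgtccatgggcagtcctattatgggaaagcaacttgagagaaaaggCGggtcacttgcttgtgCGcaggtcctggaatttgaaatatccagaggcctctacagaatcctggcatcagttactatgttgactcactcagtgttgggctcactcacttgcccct
Dmd, internal start: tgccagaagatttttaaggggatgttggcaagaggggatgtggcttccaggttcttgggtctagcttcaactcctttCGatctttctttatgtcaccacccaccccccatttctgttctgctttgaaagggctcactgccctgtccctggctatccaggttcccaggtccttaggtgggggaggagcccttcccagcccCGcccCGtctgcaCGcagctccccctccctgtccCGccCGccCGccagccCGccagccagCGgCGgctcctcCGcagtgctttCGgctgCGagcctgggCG
Tsga8: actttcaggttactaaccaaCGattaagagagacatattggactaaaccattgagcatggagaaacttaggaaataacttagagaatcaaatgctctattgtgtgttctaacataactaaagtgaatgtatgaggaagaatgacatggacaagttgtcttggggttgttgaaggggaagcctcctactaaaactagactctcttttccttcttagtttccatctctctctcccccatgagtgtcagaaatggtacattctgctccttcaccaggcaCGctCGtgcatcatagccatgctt
The upstream Dmd promoter held 2 CpG, the internal one 14 and that of Tsga8 3. Among 32851 RefSeq promoters of the same length, the median was 7, 85.9% held at least 2, 76.7% at least 3 and 36.3% at least 14. GC content was 45.7% at the upstream Dmd promoter and 62.7% at the internal one, against a median of 52.7% over all promoters. Of the other windows, W5 holds the predicted gene Gm46696, W8 the predicted gene Gm52441 and W10 the start of Fthl17a, a ferritin heavy chain-like gene. W2, W4, W6, W7 and W9 hold no protein-coding gene other than Dmd.

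Before Xist was induced, both alleles of Dmd carried about the same signal in the Spen clones and WT of the 24 h series. In the 3 h series the uninduced libraries leaned to genome 2, apart from C4. The share of the allelic signal on genome 2, summed over the 10 windows, was 55.4% and 49.3% in the uninduced Spen clones C3 and C4 at 3 h, 57.7% and 57.1% in the SPOC clones C11 and H1, and 55.7% in WT. In the 24 h series it was 51.7% and 51.1% in the uninduced Spen clones C3 and D4 and 51.9%, 52.6% and 52.5% in WT. The 12 inputs lay between 48.7% and 52.2%, with a median of 51.4%. The 3 h uninduced libraries thus reached higher than any input, apart from C4. Over all other allelic windows the uninduced share at 3 h was 54.5% and 48.7% in Spen clones C3 and C4. It was 54.8% and 54.0% in SPOC clones C11 and H1 and 53.7% in WT.

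With doxycycline the genome 2 share of Dmd was higher than without in every clone and in WT, except for the SPOC 24 h libraries as titled. In the 3 h series the share was 73.5% in Spen clone C3 and 68.1% in C4 with doxycycline. It was 78.3% in SPOC clone C11 and 76.7% in H1 with doxycycline, and 84.1% in WT. Doxycycline and uninduced libraries did not overlap within any genotype, and the induced Spen clones lay lowest. Both also held for all other allelic windows, so neither is particular to Dmd. In the Spen clones C3 and C4 the share there was 64.0% and 58.4% with doxycycline, against 54.5% and 48.7% without. Over all other allelic windows the induced share averaged 61.2% ± 3.91 in the Spen clones (SD, n = 2), 68.0% ± 0.61 in the SPOC clones (SD, n = 2) and 73.4% in WT (n = 1), so Dmd lay above the rest of the measured chromosome in all 3 genotypes.

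**Figure D1:**
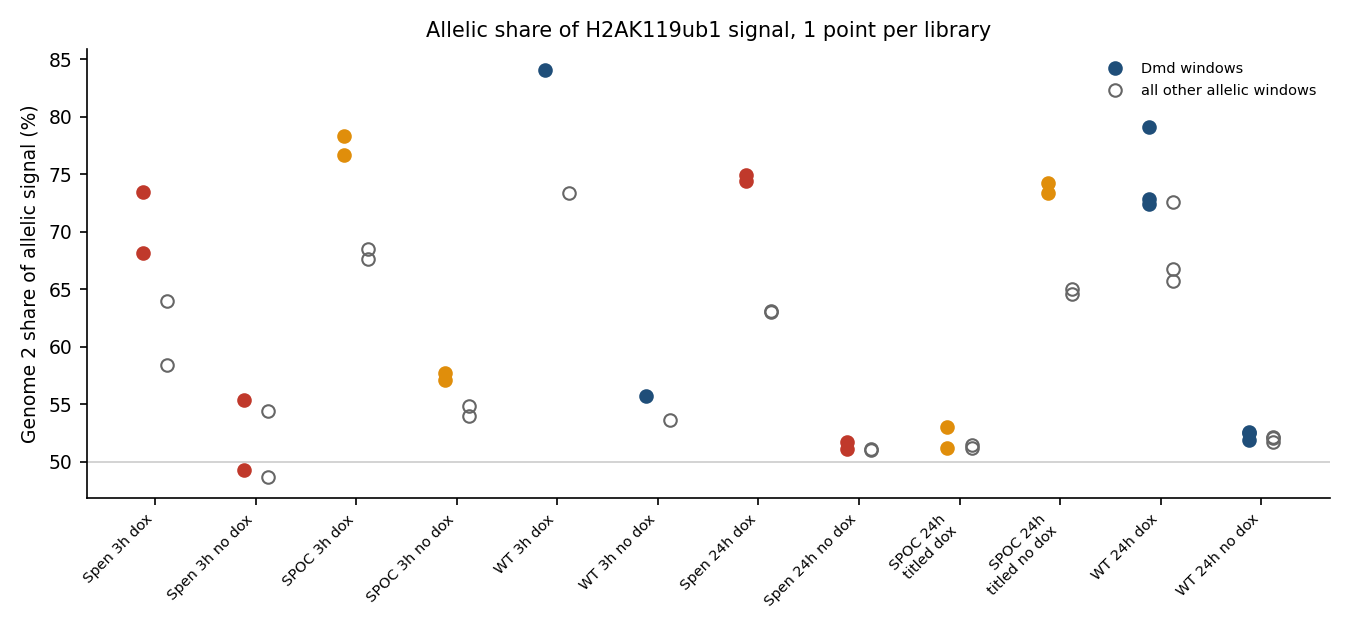
Share of allelic signal on genome 2 (%, vertical axis, which does not start at 0) in each H2AK119ub1 library, with 1 point per library. Filled points are the sum over the 10 Dmd windows and open points all other allelic windows; the SPOC 24 h columns carry their titles, and with those 4 libraries counted by file name the induced ones sit between 68.1% and 84.1% for Dmd and the uninduced ones between 49.3% and 57.7%.

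At 24 h the Dmd share was 74.4% in Spen clone C3 and 74.9% in D4 with doxycycline. It was 72.4%, 72.9% and 79.1% in the 3 induced WT replicates. In the SPOC libraries titled as doxycycline it was 53.1% in E7 and 51.2% in H1, against 74.3% and 73.4% in those titled as uninduced. By their file names the second pair are the induced libraries. All other allelic windows averaged 63.1% ± 0.086 in the induced Spen clones (SD, n = 2) and 68.3% ± 3.69 in induced WT (SD, n = 3), while Dmd averaged 74.7% ± 0.38 in the induced Spen clones and 74.8% ± 3.74 in induced WT.

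The change was on genome 2. The median at 3 h of the log2 change of the genome 2 signal over the 10 windows was 1.27 ± 0.39 in the Spen clones, 1.51 ± 0.021 in the SPOC clones (SD, n = 2 each) and 2.09 in WT (n = 1). On genome 1 it was 0.19 ± 0.35 in the Spen clones, 0.24 ± 0.15 in the SPOC clones and 0.15 in WT. At 24 h it was 1.32 ± 0.044 on genome 2 and 0.047 ± 0.034 on genome 1 in the Spen clones (SD, n = 2). In WT at 24 h it was 1.69 ± 0.15 on genome 2 and 0.23 ± 0.16 on genome 1 (SD, n = 3). Single-allele values depend on how the authors scaled 1 library to another, which the ratio of the alleles does not. In the total files, which also hold reads with no allele, the median log2 change was 0.77 ± 0.30 in the Spen clones, 1.02 ± 0.015 in the SPOC clones (SD, n = 2 each) and 1.54 in WT at 3 h. Over all windows of the total files it was 0.34 in the Spen clones, 0.57 in the SPOC clones and 0.78 in WT.

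The measure tested was the log2 ratio of genome 2 to genome 1 in each window, induced minus uninduced. Over the Dmd windows at 3 h, the median change was 1.09 ± 0.03 in the Spen clones (SD, n = 2), 1.29 ± 0.12 in the SPOC clones (SD, n = 2) and 1.98 in WT (n = 1). Over all 353 windows it was 0.44 in the Spen clones, 0.73 in the SPOC clones and 1.10 in WT. In the limma fit of the 10 libraries of the 3 h series, all 10 Dmd windows rose in the Spen clones, where 43.9% of all 353 windows were called higher at a Benjamini-Hochberg adjusted p of 0.05. All 10 rose in the SPOC clones, against 74.5% of all windows, and all 10 rose in WT, against 79.6%. In WT and in the SPOC clones most of the chromosome was called, so that count says little about Dmd itself. A stricter reading sets each library to the median of its own windows, so that a window is called where it gained more than the chromosome did. In that fit all 10 Dmd windows were called higher in the Spen clones (27.2% of all windows), 9 in the SPOC clones (30.3%) and 10 in WT (28.6%). The exception was W5 in the SPOC clones, at 0.20 ± 0.09 (SE; limma adjusted p = 0.0769).

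The leading window at 3 h was W9, near the 3′ end, with no protein-coding gene other than Dmd. Its genome 2 signal was 117.8 and 100.8 in Spen clones C3 and C4 with doxycycline, against 36.7 and 25.1 in the uninduced libraries of the same clones. In SPOC clones C11 and H1 it was 145.5 and 252.9 with doxycycline, against 35.9 and 56.1 without. In WT it was 343.3 with doxycycline, against 49.5 without. Induced and uninduced libraries did not overlap at W9. The share of all windows that separate in this way was not counted, so the separation says nothing particular about W9. The log2 ratio of W9 changed by 1.69 ± 0.21 in the Spen clones (SE, 3.23-fold; limma adjusted p = 1.25e-13), by 1.82 ± 0.21 in the SPOC clones (SE, 3.52-fold; limma adjusted p = 8.88e-16) and by 2.52 ± 0.29 in WT (SE, 5.75-fold; limma adjusted p = 3.32e-15). W9 had the largest mean change of the 353 windows in each of the 3 genotypes. Next within the gene came W3, at 1.54 in the Spen clones (rank 5), 1.56 in the SPOC clones (rank 6) and 2.35 in WT (rank 4).

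The smallest mean change of the gene was at W1 in the Spen clones and in WT and at W5 in the SPOC clones, and W7 was also low, at 0.86 in the Spen clones, 0.99 in the SPOC clones and 1.83 in WT. W1 changed by 0.71 ± 0.21 in the Spen clones (SE; limma adjusted p = 0.00201), by 1.18 ± 0.21 in the SPOC clones (SE; adjusted p = 8.10e-08) and by 1.57 ± 0.29 in WT (SE; adjusted p = 3.17e-07). W5 changed by 0.83 ± 0.21 in the Spen clones (SE; limma adjusted p = 0.000281), by 0.91 ± 0.21 in the SPOC clones (SE; adjusted p = 3.01e-05) and by 1.80 ± 0.29 in WT (SE; adjusted p = 7.30e-09). WT had 1 pair of libraries, so its standard error is borrowed from the spread between the clones of the other genotypes. limma pooled the spread over all windows, giving every window the same SE and 1412 degrees of freedom where a single window has 4, although windows of 1 library share that library's offset. These p-values are therefore too small. The fit with clone as a block does not remove this limit. It also takes most of its spread from other windows of the same libraries, and the single WT pair adds none. Its p-values, calls and intervals, here and below, can be too small or too narrow for the same reason. With clone as a block and 12.2 degrees of freedom, the adjusted p of W9 was 1.92e-08 in the Spen clones, 1.15e-08 in the SPOC clones and 1.88e-08 in WT.

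**Figure D2:**
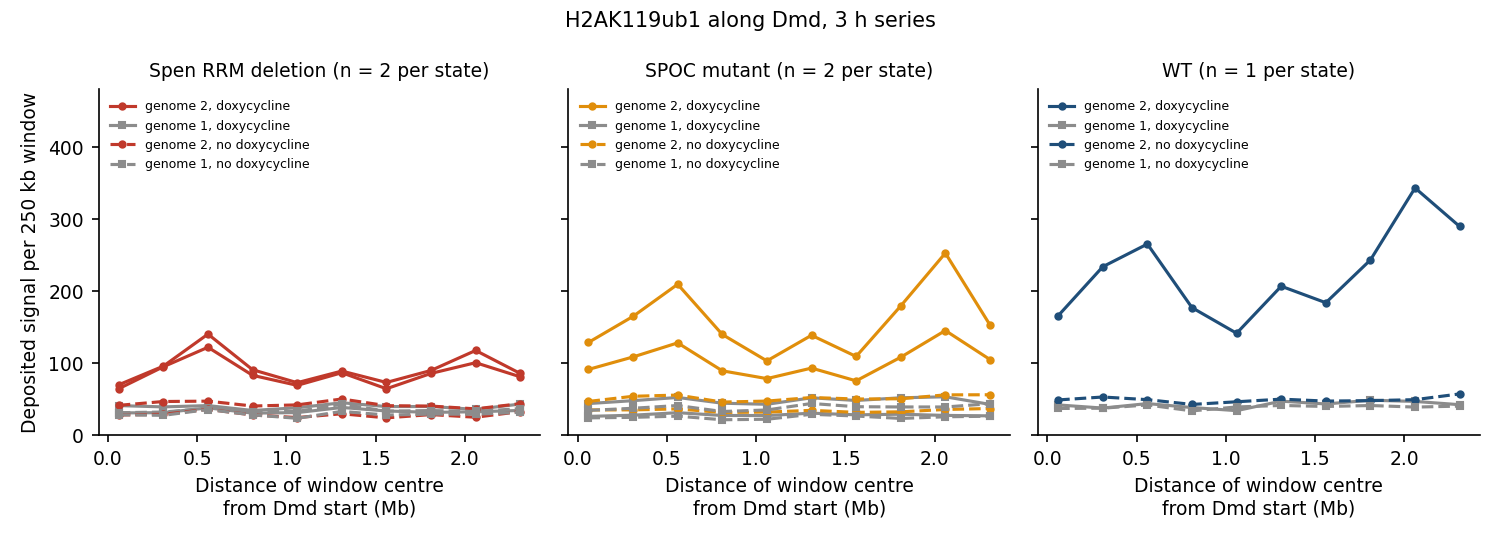
Deposited signal per 250 kb window (vertical axis, from 0) along Dmd in the 3 h series, against the distance of the window centre from the annotated start of the gene (Mb), 1 line per library. Genome 2 with doxycycline (coloured solid lines) peaks at W3 and W9 in all 3 genotypes and reaches 343.3 in WT. Uninduced genome 2 (coloured dashed) reaches at most 57.5 and genome 1 (grey) at most 53.5.

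Between genotypes, the gain at Dmd was lower in the Spen clones than in WT in 4 of the 10 windows, where 13.6% of all 353 windows were called lower. These were W10 (−1.30 ± 0.36, SE; limma adjusted p = 0.011), W2 (−0.99 ± 0.36, SE; adjusted p = 0.0452), W5 (−0.97 ± 0.36, SE; adjusted p = 0.0491) and W7 (−0.96 ± 0.36, SE; adjusted p = 0.0498). All 10 differences were negative, from −1.30 at W10 to −0.60 at W4, with a median of −0.88, against −0.60 over all windows. With clone as a block, since both libraries of a pair come from 1 clone, all 10 windows were called lower than in WT, and so were 73.4% of all windows. With each library set to its own median window, 0 of the 10 were called lower in limma (0.85% of all windows; 1 of the 10 had an unadjusted p under 0.05), and with the block added to that, 1 was, W10, at −0.63 ± 0.18 (SE; limma adjusted p = 0.00775; 4.82% of all windows). Set against the chromosome's own median, the lower gain in the Spen clones therefore passed the test at the 3′ end window in 1 of these 2 fits, and in neither at the other 9 windows. Leaving out either SPOC clone, which changes the shared spread alone, left 0 of the 10 called, and leaving out either Spen clone left 9.

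For the SPOC clones against WT the differences had a median of −0.74, from −0.89 at W5 to −0.40 at W1, against −0.37 over all windows. In the limma test 0 of the 10 windows passed (0.283% of all windows), and 7 of the 10 had an unadjusted p under 0.05. With clone as a block all 10 were called lower, against 44.5% of all windows. With each library set to its own median window 0 were called lower in limma (0% of all windows), and 5 of the 10 had an unadjusted p under 0.05. The median difference with that step was −0.34, against 0.02 over all windows. For the Spen clones against WT it was −0.21, against 0.07 over all windows. The Spen and SPOC clones differed less from each other: the median difference was −0.17, Spen clones minus SPOC clones, against −0.22 over all windows. Of the 10 windows 0 passed (0% of all windows), and 0 had an unadjusted p under 0.05. With clone as a block 2 were called lower in the Spen clones, against 22.7% of all windows. They were W1 (−0.46 ± 0.12, SE; limma adjusted p = 0.0244) and W10 (−0.51 ± 0.12, SE; limma adjusted p = 0.0172). A share of 2 in 10 is close to that of all windows, so it says nothing about Dmd itself. With each library set to its own median window 0 of the 10 were called lower in limma (0% of all windows; 0 with an unadjusted p under 0.05), also with the block added (0.567% of all windows; 0 with an unadjusted p under 0.05), and the median difference was 0.10. In the blocked fit without that step, the difference at W3 was −0.02, with a 95% interval of −0.27 to 0.24, and at W9 it was −0.12, with an interval of −0.39 to 0.15.

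At 24 h the highest mean change of the gene was at W3, but single pairs differed in their leading window. It was W4 in Spen clone C3 and W3 in D4, W3 in both SPOC clones with the states of the file names, and W4, W7 and W3 in WT replicates 1, 2 and 3. The genome 2 signal of W3 was 183.5 and 201.1 in Spen clones C3 and D4 with doxycycline, against 47.9 and 42.7 without. In WT it was 143.1, 144.1 and 210.6 with doxycycline, against 41.2, 44.0 and 49.4 without. In the SPOC clones it was 42.7 and 46.5 in the libraries titled as doxycycline, against 148.8 and 169.2 in those titled as uninduced. Over the 10 windows the median change of the log2 ratio was 1.35 ± 0.013 in the Spen clones (SD, n = 2), 1.34 ± 0.025 in the SPOC clones with the states of the file names (−1.34 as titled; SD, n = 2) and 1.47 ± 0.24 in WT (SD, n = 3). Over all 353 windows it was 0.66 in the Spen clones, 0.70 in the SPOC clones with the states of the file names and 0.95 in WT. The change at W3 was 1.96 ± 0.30 in the Spen clones (SD, n = 2), the largest of the 353 windows, and 1.64 ± 0.42 in WT (SD, n = 3), the second. In the SPOC clones with the states of the file names it was 1.76 ± 0.15 (SD, n = 2), also the largest, and with the titles it has the opposite sign.

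The Spen clones had a plateau at the 5′ side at 24 h. W2 changed by 1.79 ± 0.073 and W4 by 1.86 ± 0.074 (SD, n = 2), ranks 4 and 2 of the 353 windows, so that 3 windows in a row in the gene were among the top 4. In WT the same windows changed by 1.40 ± 0.37 and 1.52 ± 0.23 (SD, n = 3), ranks 32 and 9. In the SPOC clones with the states of the file names they changed by 1.35 ± 0.20 and 1.55 ± 0.26 (SD, n = 2), ranks 23 and 6. At the 3′ end the order of the Spen clones and WT was the other way round: W10 changed by 1.21 ± 0.088 in the Spen clones (rank 68) and by 1.52 ± 0.19 in WT (rank 8). The SPOC clones with the states of the file names lay between them at W10, at 1.39 ± 0.0042 (rank 17). As titled, these SPOC changes have the opposite sign. Clone D4 had its lowest genome 2 signal there, 75.9, and clone C3 had 103.8, against 151.5, 156.5 and 201.3 in induced WT. W10 was the highest genome 2 window of the gene in 2 of the 3 induced WT replicates. W3 exceeded W10 by 0.75 ± 0.39 in the Spen clones, by 0.37 ± 0.16 in the SPOC clones with the states of the file names (SD, n = 2 each) and by 0.13 ± 0.23 in WT (SD, n = 3). Both windows were picked after their values were seen, W3 as the highest mean, so the sign of these means follows from the choice. The ranges of single pairs overlapped for many windows between genotypes, and no difference at 24 h was tested.

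**Figure D3:**
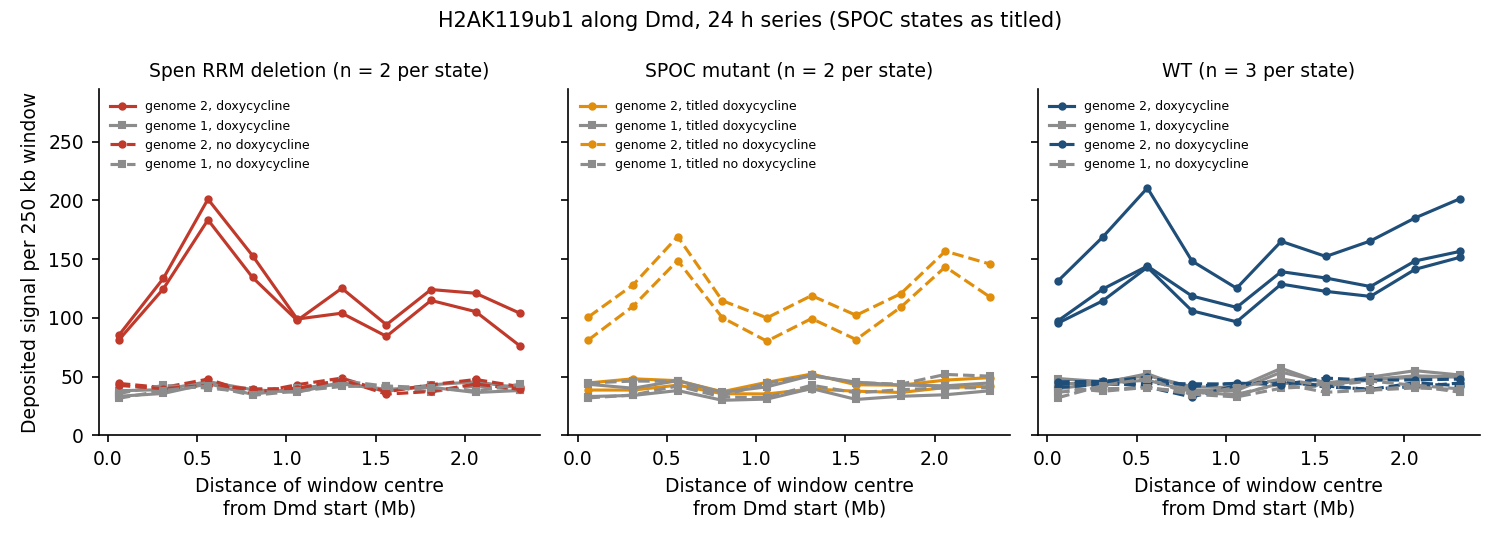
Deposited signal per 250 kb window (vertical axis, from 0) along Dmd in the 24 h series against the distance from the gene's start (Mb), 1 line per library, with the SPOC states as titled. Induced Spen clones peak at W3 (183.5 and 201.1) and decline towards the 3′ end, induced WT is high at W3 and again at W10, and the SPOC libraries titled as uninduced are the high ones.

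Put as a contrast of the 5 windows of the 3′ side minus the 5 of the 5′ side, the change at 24 h was −0.23 ± 0.13 in the Spen clones (SD, n = 2), −0.06 ± 0.0095 in the SPOC clones with the states of the file names (SD, n = 2) and 0.11 ± 0.046 in WT (SD, n = 3). At 3 h the same contrast was 0.06 ± 0.017 in the Spen clones, 0.16 ± 0.026 in the SPOC clones (SD, n = 2 each) and 0.17 in WT (n = 1). W3 and W9 were picked after their values were seen, as the highest means of the gene at 24 h and at 3 h. The sign of their mean difference at each time therefore follows from that choice, with the SPOC 24 h states of the file names. W3 minus W9 was below 0 in every genotype at 3 h, at −0.15 ± 0.0035 in the Spen clones, −0.26 ± 0.13 in the SPOC clones (SD, n = 2 each) and −0.17 in WT. At 24 h it was 0.69 ± 0.24 in the Spen clones, 0.25 ± 0.26 in the SPOC clones with the states of the file names (SD, n = 2 each) and 0.14 ± 0.21 in WT (SD, n = 3). The SPOC and WT means at 24 h are within 1 SD of 0, and in WT replicates 1 and 2 the difference was 2.8e-05 and 0.04, against 0.38 in replicate 3. The 3 h and 24 h series were made apart, so time and series cannot be told apart.

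**Figure D4:**
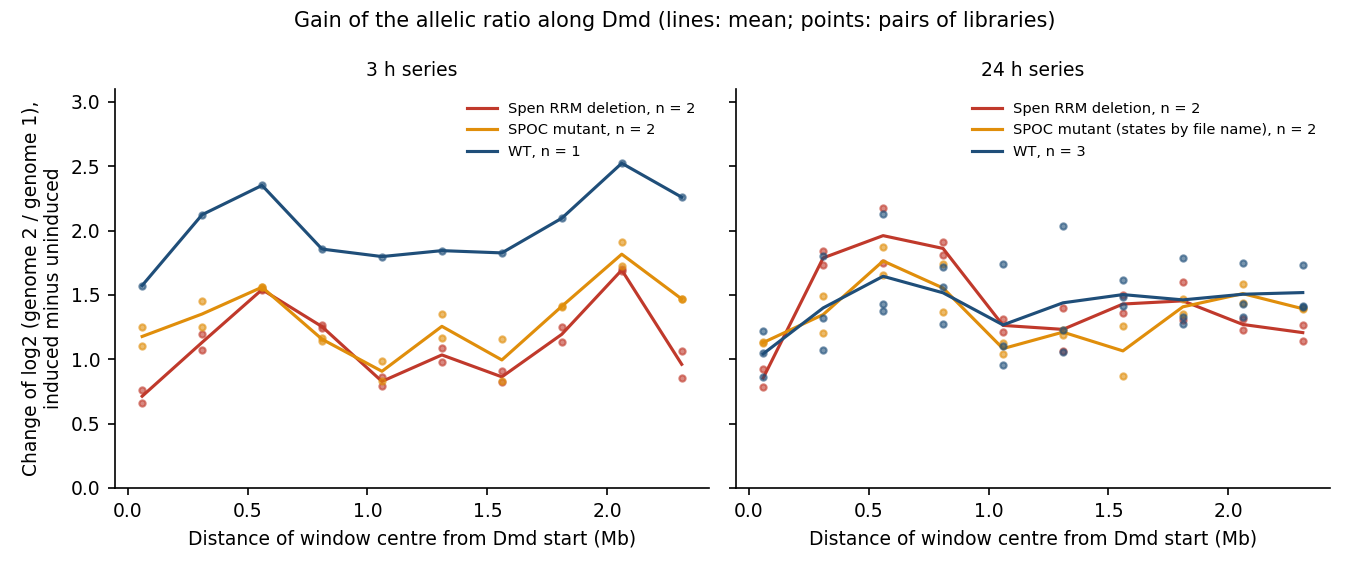
Change of the log2 ratio of genome 2 to genome 1, induced minus uninduced (vertical axis), along Dmd (horizontal axis, Mb from the gene's start), at 3 h and at 24 h. Lines are means and points single pairs of libraries; at 3 h the 3 genotypes share a peak at W9 (1.69 in the Spen clones, 1.82 in the SPOC clones and 2.52 in WT), and at 24 h the highest mean in each is at W3, with the SPOC states taken from the file names (as titled, the SPOC values have the opposite sign).

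The unevenness within the gene was larger on induced genome 2 than on uninduced genome 2, genome 2 of the inputs or genome 1. It was not measured for other stretches of the chromosome. Over the 10 windows the coefficient of variation of the genome 2 signal was 14.1% to 32.9% in the 12 induced libraries (SPOC 24 h states by file name), against 4.6% to 12.9% in the 12 uninduced ones and 6.8% to 13.5% in the inputs. Genome 1 varied by 5.8% to 11.9% in the induced libraries and by 6.3% to 12.8% in the uninduced. Each window's signal also depends on how many reads can be given to an allele there, which a ratio within the window does not. As a description over the 10 windows, the profiles of change had a Pearson r of 0.94 between the 2 Spen clones at 3 h, 0.92 between the 2 SPOC clones, 0.78 and 0.86 between Spen clones and WT and 0.86 for both SPOC clones with WT. At 24 h it was 0.84 between the Spen clones, 0.63 between the SPOC clones and 0.15 to 0.67 among the WT replicates. The 10 windows are neighbours on 1 chromosome and share their libraries.

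The 1 Mb on each side of Dmd did not look alike. On the 5′ side, the 4 windows from X:81750001 to X:82750000 hold no protein-coding gene, and at 3 h their median change was 0.42 in the Spen clones, 0.74 in the SPOC clones and 1.13 in WT, near the medians over all windows. In WT at 3 h their changes were 0.66, 0.98, 1.28 and 1.69 from the farthest window to the one next to the gene. On the 3′ side, the 4 windows from X:85250001 to X:86250000 hold Fthl17a, Tab3 (an adaptor of inflammatory kinase signalling), Gk (glycerol kinase), 5430427O19Rik, Samt3 and Nr0b1 (the nuclear receptor Dax1). Their median was 1.07 in the Spen clones, 1.43 in the SPOC clones and 2.26 in WT at 3 h, close to or above the median of Dmd itself. At 24 h the 5′ side had a median of 0.98 in the Spen clones and 0.80 in WT, and the 3′ side 1.22 in the Spen clones and 1.40 in WT. The 5′ side had a lower median than Dmd in these groups. The 3′ side was above Dmd in the SPOC clones and WT at 3 h. It was below Dmd in the Spen clones and WT at 24 h, and barely below in the Spen clones at 3 h (1.07 against 1.08). In the SPOC clones at 24 h, with the states of the file names, the 5′ side had 0.70 and the 3′ side 1.43, against 1.37 for Dmd. As titled, these have the opposite sign. Medians here are over the mean change of each window. W1, which holds the upstream promoter, had the lowest mean change of the gene in the Spen clones and in WT at both times.

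Other long genes were not all alike. Of the protein-coding X genes of 500 kb or more, 4 besides Dmd lie in the allelic windows. The median change at 3 h over the windows of Il1rapl1, a synaptic adhesion gene, was 1.06 in the Spen clones, 1.24 in the SPOC clones and 1.77 in WT (7 windows). Aff2 had 1.06 in the Spen clones, 1.08 in the SPOC clones and 1.72 in WT (3 windows). Fgf13, which codes for a fibroblast growth factor homologue of neurons, had 0.98 in the Spen clones, 1.03 in the SPOC clones and 1.64 in WT (3 windows). Tenm1, a teneurin gene, had 0.49 in the Spen clones, 0.50 in the SPOC clones and 1.31 in WT (4 windows). Dmd had the highest median of the 5 genes in each genotype at 3 h. The range of its windows overlapped those of Il1rapl1, Aff2 and Fgf13 in each genotype, and that of Tenm1 in the Spen clones only. In the Spen clones at 24 h Dmd, at 1.35, came after Aff2 (1.67), Il1rapl1 (1.63) and Fgf13 (1.46), while in WT at 24 h it was highest, at 1.48, with Il1rapl1 next at 1.34. Neither order was tested.

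**Figure D5:**
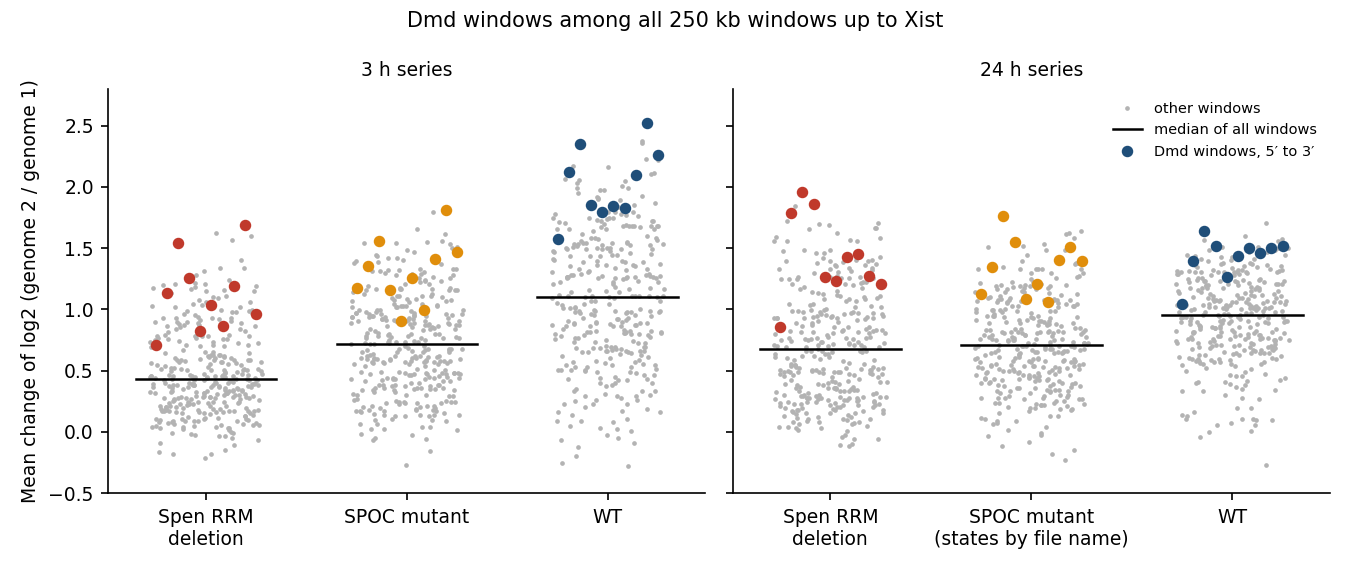
Mean change of the log2 ratio of genome 2 to genome 1 (vertical axis) for each of the 353 windows at 3 h and 24 h, by genotype. Grey points are other windows, coloured points the 10 Dmd windows from 5′ to 3′ and the black line the median of all windows; W9 is the top window at 3 h in each genotype, and each Dmd window lies above the median line, with the SPOC 24 h states taken from the file names (as titled, all 10 lie below it).

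Other muscle disease genes of the X chromosome lay below the median of Dmd at 3 h. Of 6 listed, Lamp2, Fhl1, Mtm1, Vma21 and Emd lay in tested windows, and Smpx lies past the end of the allelic files. In the limma fit of the 3 h libraries, 3 of the 5 rose in the Spen clones (43.9% of all windows), 5 in the SPOC clones (74.5%) and 5 in WT (79.6%). Mtm1, the myotubularin phosphatase gene, changed by 0.91 in the Spen clones (limma adjusted p = 6.29e-05), 1.12 in the SPOC clones and 1.80 in WT. Emd, the emerin gene, had a difference of 0.36 in the Spen clones (limma adjusted p = 0.128, and 0.00204 with clone as a block), 0.96 in the SPOC clones and 1.26 in WT. Its value at 24 h was 0.32 in the Spen clones, 1.04 in the SPOC clones with the states of the file names and 1.50 in WT, while the Dmd median was 1.35 in the Spen clones and 1.48 in WT. Lamp2, a lysosomal membrane protein gene, had a difference of 0.09 in the Spen clones (limma adjusted p = 0.733), 0.43 in the SPOC clones and 0.90 in WT. For the Spen clones against WT, 0 of the 5 passed the limma test, with adjusted p from 0.0618 to 0.257 (4 had an unadjusted p under 0.05), where 13.6% of all windows were called lower. With clone as a block all 5 were called lower in the Spen clones, against 73.4% of all windows, so that count says little about these genes.

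The windows outside Dmd most like its mean profile were found by the root mean square difference over the 12 pairs. The first was X:86000001-86250000 with Samt3 and Nr0b1 (0.13), on the 3′ side of the gene. Others were a window inside Il1rapl1, from X:87000001 (0.14), and a window with no protein-coding gene from X:92750001 (0.15). A window from X:86500001 to X:86750000 (0.15) overlaps only the edge of Il1rapl1, whose annotated body begins at X:86740937. The Dmd windows themselves differed from their mean by 0.089 to 0.39, and the other windows had a median of 0.72.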

How the data were processed

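H2AK119ub1 native ChIP and input signal were analysed in 36 libraries, each with 3 files (genome 1, genome 2, total). Per the submitters' processing notes the reads were aligned to mm10 with Bowtie2 2.2.6, with Picard and bedtools also named. The authors deposited a signal value per 250 kb window of the X chromosome, 685 windows in total files and 414, ending at Xist, in allelic ones. How libraries were scaled, and which strain is genome 1, are not given in the sources used here. Read depth is unknown; the deposited signal summed to 116006 to 277241 per ChIP library over the total windows. If the smallest positive value were 1 fragment, counting error of a window's log2 ratio would be 0.066 to 0.12 (SD) in ChIP libraries, which covers counting error only.

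From these values, log2((genome 2 + c)/(genome 1 + c)) was computed, with c 1% of the file's median window. Windows averaging at least 10% of the median window on both alleles over all libraries were kept (353). Changes are induced minus uninduced, within pairs at 24 h. At 3 h, limma 3.58.1 (R 4.3.3) was fitted to 10 libraries in 6 groups without a block, with Benjamini-Hochberg adjustment over 353 windows; it was tested on simulated data. Same-numbered libraries come from 1 clone, so the numbers pair the samples. Deviations from group means correlated over windows at 0.16 (Spen) and 0.31 (SPOC) at 3 h. Such a correlation leaves out the offset that all windows of a library share, and both libraries of a clone had a similar offset. The mean deviation was 0.159 with doxycycline and 0.163 without in Spen clone C3, and 0.049 and 0.032 in SPOC clone C11. The fit without a block ignores this pairing. Samples were grouped by title. Windows named are those of Dmd, its neighbours within 1 Mb, X genes of 500 kb or more, a list of muscle disease genes, and the 5 windows most like Dmd, of which 1 is not reported here. Alternatives were the pseudocount, the filter, centring, the block, 1 fit of both series, input subtraction, exchanged SPOC states and leaving out each clone. The Drosophila spike-in was not used. The gene and the lists were chosen with earlier results of these data known. Promoters and gene positions are from RefSeq (GRCm38.p6). Python 3.11.15 with pandas 2.3.3, numpy 2.4.6 and matplotlib 3.10.9 was used for summaries and figures.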

Additional observations from a re-analysis of the deposited data

Results flagged for a closer look

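At 3 h the gain of the allelic ratio differed between the Spen clones and WT in 4 windows of Dmd, by the interaction term of the limma fit: W2 by −0.99 (adjusted p = 0.0452), W5 by −0.97 (adjusted p = 0.0491), W7 by −0.96 (adjusted p = 0.0498) and W10 by −1.30 (adjusted p = 0.011), Spen clones minus WT. The differences were negative in all 10 windows, and WT had 1 pair of libraries. No group had enough libraries for a check of single outlying samples.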

How the results depend on the processing

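At 3 h, the count of Dmd windows called higher was 10 in the Spen clones and in WT under every alternative run, and 9 or 10 in the SPOC clones. The count called lower in the Spen clones than in WT was 4, and it was 4 and 3 with a pseudocount of 5% and 0.1%, 1 with no filter on low windows, 0 with each library centred on its median window, 10 with the replicate block, 1 with the replicate block and centring together (chosen after seeing the data) and 9 in 1 fit of both series. Leaving out each clone in turn gave 0 to 9. For the SPOC clones against WT the count was 0, and 10 with the replicate block. For the Spen clones against the SPOC clones it was 0, and 2 with the replicate block. The cause of these shifts was not tested. The Spen minus WT difference at W4 was −0.60, and 0.066 with centring, both with and without the replicate block, and passed in neither. Of the values of single windows that were compared, 568 stayed on their side of the threshold under the alternatives. Another 33 passed it newly, 21 no longer passed and 2 were counted as changed in sign. That count does not take in every difference: the median of Spen clones minus SPOC clones was −0.17, and 0.10 with centring.

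At 24 h, centring gave a median change of 0.69 in the Spen clones, −0.62 in the SPOC clones as titled and 0.49 in WT, since it removes the gain shared by the chromosome. Subtracting each library's own input gave 1.42 in the Spen clones and −1.40 in the SPOC clones, and a pseudocount of 5% gave 1.33 in the Spen clones. Exchanging the SPOC states gave 1.34 in place of −1.34. Depth is known only through the assumed counting error, so differences of single windows near that size are not resolved.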
